A study of Mus musculus with 18 samples.

Results

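The 9 messenger RNAs Igf2bp2, Tgfbr1, Arid3b, Nras, Ccnd1, Ccnd2, Cdc25a, Map4k4 and Plagl2, all known as targets of the microRNA let-7, were followed in the epididymal fat of adult male mice that came from an experiment in which let-7 had been injected into zygotes. They were picked by symbol: the Ensembl identifiers of the count table were matched to GENCODE M21 names, and 9 of the 9 symbols were found among the 16452 genes measured. The question put to them was whether adult fat keeps any trace of the injected microRNA. RNA sequencing covered whole epididymal white adipose tissue (eWAT) of C57BL/6 males labelled wild type and of a generation named Fm. In the let-7d group (6 libraries) the zygote had received miR-let-7d, in the let-7e group (6 libraries) miR-let-7e, and in the control group (5 libraries analysed) a negative control. All 3 groups carry the prefix IVF in their treatment label, were given chow until week 6 and the diet labelled LFD until week 15, and have an age label of 24 weeks, which the feeding description does not settle. The labels say that the Fm males were sired from the injected zygotes and do not say whether each male grew from such a zygote or was fathered by a male that did. Control replicate 5 was not analysed here. The labels number the libraries within a group without saying that each is a separate animal, so p-values measure the spread between these libraries. The microRNAs themselves were not measured in these libraries.

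Let-7 microRNAs guide Argonaute proteins to messenger RNAs whose 3' untranslated region (3' UTR) pairs with the seed, bases 2 to 8 of the microRNA, and the bound messenger RNA is translated less and decays faster. The family is scarce in the early embryo and abundant in differentiated tissue, where it holds back growth and cell division genes and, in mice, is known to affect glucose metabolism. Epididymal fat is a mixture of fat cells, stromal, endothelial and immune cells, so in these bulk libraries fewer cells of a type and less RNA per cell cannot be told apart.

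The injected microRNAs are shown first because they share the part that recognises the targets. Capitals mark the seed, and let-7a, another member of the family, is printed for comparison. Sequences are from RefSeq on GRCm38.p6.
let-7d-5p: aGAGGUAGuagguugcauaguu
let-7e-5p: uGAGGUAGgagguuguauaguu
let-7a-5p: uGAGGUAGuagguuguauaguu
The mature let-7d lies on chr13:48536078-48536099 (minus strand) and let-7e on chr17:17830366-17830387 (plus strand). Counting from 1 at the 5' end, and with the let-7d base given first, they differ by A1U, U9G and C16U. All 3 differences lie outside the seed, so the same seed matches in a 3' UTR face both microRNAs.

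The strongest seed match in the annotated 3' UTR of each messenger RNA is shown next, with the match in capitals and 14 bases upstream of it in lower case. An 8mer is CTACCTCA, which pairs with the whole seed and has an A opposite base 1 of the microRNA. A 7mer-m8 (CTACCTC) lacks that A, and a 7mer-A1 (TACCTCA) pairs with bases 2 to 7 and keeps the A. Only the transcript strand was searched, and a shorter match inside an 8mer was not counted again.
Map4k4, 8mer: gttttgttttttgcCTACCTCA
Tgfbr1, 8mer: ggaggctggttgttCTACCTCA
Igf2bp2, 8mer: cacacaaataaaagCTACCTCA
Nras, 7mer-m8: cctcttcagaataaCTACCTC
Cdc25a, 7mer-m8: tatcatcctaggagCTACCTC
Arid3b, 7mer-m8: atttcaataaagctCTACCTC
Plagl2, 7mer-m8: tcagaaacacacttCTACCTC
Ccnd1, 7mer-A1: gttcctgttcacaaTACCTCA
Ccnd2, 7mer-A1: aagagagtattcttTACCTCA
In GRCm38 these windows lie at chr1:40025674-40025695 (Map4k4, plus), chr4:47410829-47410850 (Tgfbr1, plus), chr16:22059473-22059494 (Igf2bp2, minus), chr3:103064360-103064380 (Nras, plus), chr9:109892733-109892753 (Cdc25a, plus), chr9:57790362-57790382 (Arid3b, minus), chr2:153229899-153229919 (Plagl2, minus), chr7:144930598-144930618 (Ccnd1, minus) and chr6:127128300-127128320 (Ccnd2, minus).

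Each of the 9 messenger RNAs held at least 1 match, against 16.6% of the 14150 measured genes with an annotated 3' UTR. They were chosen as known targets, so this describes them and is not an independent result. Over the 14150 genes the best match was an 8mer in 3.58%, a 7mer-m8 in 6.71% and a 7mer-A1 in 6.29%. The 9 messenger RNAs also have long 3' UTRs, with a median of 2676 bases against 1141 bases over all genes, and longer stretches hold more matches of any kind. Arid3b held the most matches: 4 of the 7mer-A1 kind at 3' UTR positions 67, 846, 1499 and 2056, and the 7mer-m8 at position 2148 of 2160, close to the annotated transcript end. Ccnd2 held 3 matches of the 7mer-A1 kind, at 2029, 2107 and 4743 of 5173. Igf2bp2 held a 7mer-A1 at 1330 besides the 8mer at 1313 of 1784, Tgfbr1 one at 3706 besides the 8mer at 66 of 4154, and Nras one at 2745 besides the 7mer-m8 at 187 of 3727. Map4k4 (976 of 1598), Cdc25a (528 of 1676), Plagl2 (1584 of 3730) and Ccnd1 (2003 of 2676) held 1 match each. A match describes these letters in the longest annotated 3' UTR, and which 3' UTR this fat uses was not measured.

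**Figure D1:**
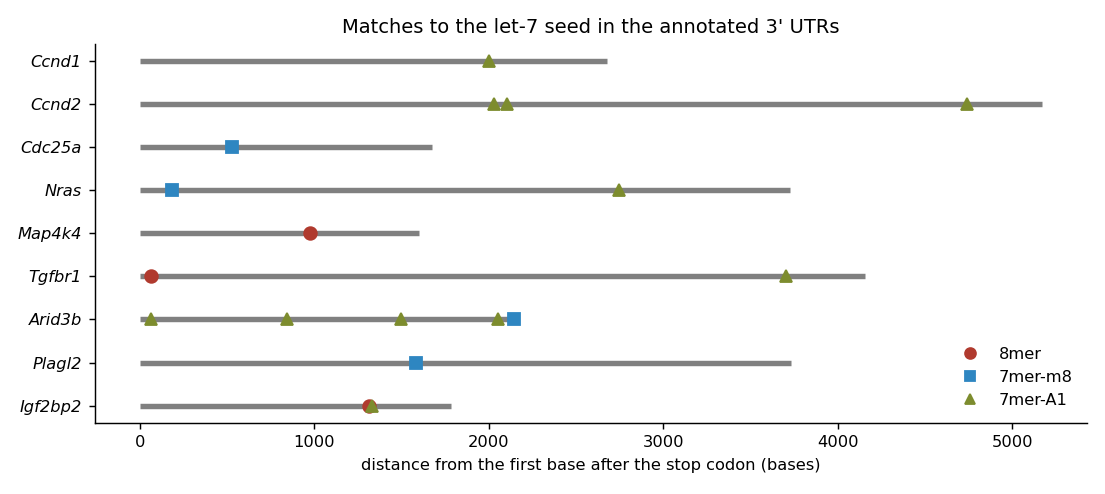
Seed matches along the 3' UTR of each messenger RNA, as distance in bases from the first base after the stop codon; grey bars are the annotated 3' UTR, circles 8mers, squares 7mer-m8 and triangles 7mer-A1 matches. Tgfbr1 and Nras have their strongest match near the stop codon, at positions 66 and 187, whereas that of Arid3b lies near the far end, at position 2148 of 2160.

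Total counts were 12717365 to 28972306 per library, and each of the 9 messenger RNAs was detected in all 17 libraries, at 53 (Arid3b) to 11413 (Ccnd2) reads. All 7 fat cell markers were detected in all 17 libraries. Their summed level was 24857.5 to 49747.7 CPM (read counts scaled to library size, with TMM factors). Lep, 1 of the 7, varied widely. It had 660 to 2546 CPM in let-7d libraries and 504 to 1798 CPM in let-7e libraries. In controls 1, 2, 3, 4 and 6 it had 248, 2080, 339, 640 and 802 CPM. Other marker lists set 4 libraries apart. The 3 vas deferens and epididymis markers summed to 17464.3 CPM in control 3 and to at most 27.6 CPM elsewhere, and the 5 smooth muscle markers to 13184.8 CPM in control 3. The 5 spermatid markers summed to 1066.1 CPM in control 6 and to at most 55.5 CPM elsewhere. The 6 epithelium markers summed to 538 CPM in let-7d 1, 238 CPM in let-7d 5 and 289 CPM in control 3, and to at most 40.6 CPM elsewhere. No let-7e library is among these 4. The library identifiers also fall into a digit-only series (replicates 1 and 2 of both injected groups) and an A-prefixed series (the other 13, with all controls). What the series stand for is not labelled. The series was a term of the main fit, and some alternatives left it out. A fitted fold change can therefore differ from the ratio of group means.

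Levels of the 9 messenger RNAs were compared with each other per kilobase of exon. Ccnd2 was the highest, at 31.1 CPM per kb over the 17 libraries, which is percentile 91.0 of all genes measured. Map4k4 followed at 23.8, Nras at 11.9, Ccnd1 at 7.96 and Tgfbr1 at 4.19 CPM per kb. The lowest were Plagl2 at 1.69, Igf2bp2 at 1.20, Cdc25a at 1.05 and Arid3b at 0.780 CPM per kb, the last at percentile 21.3. Neighbours in this order kept it in 15 to 17 of the 17 libraries, except Igf2bp2 and Cdc25a, which did so in 11 and so were not separated. The messenger RNAs varied to different degrees between libraries. The coefficient of variation was smallest for Nras, at 0.0915, and largest for Ccnd1, at 0.714. The median over the 9 was 0.238, against 0.169 over the 10763 genes at or above the level of Arid3b.

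**Figure D2:**
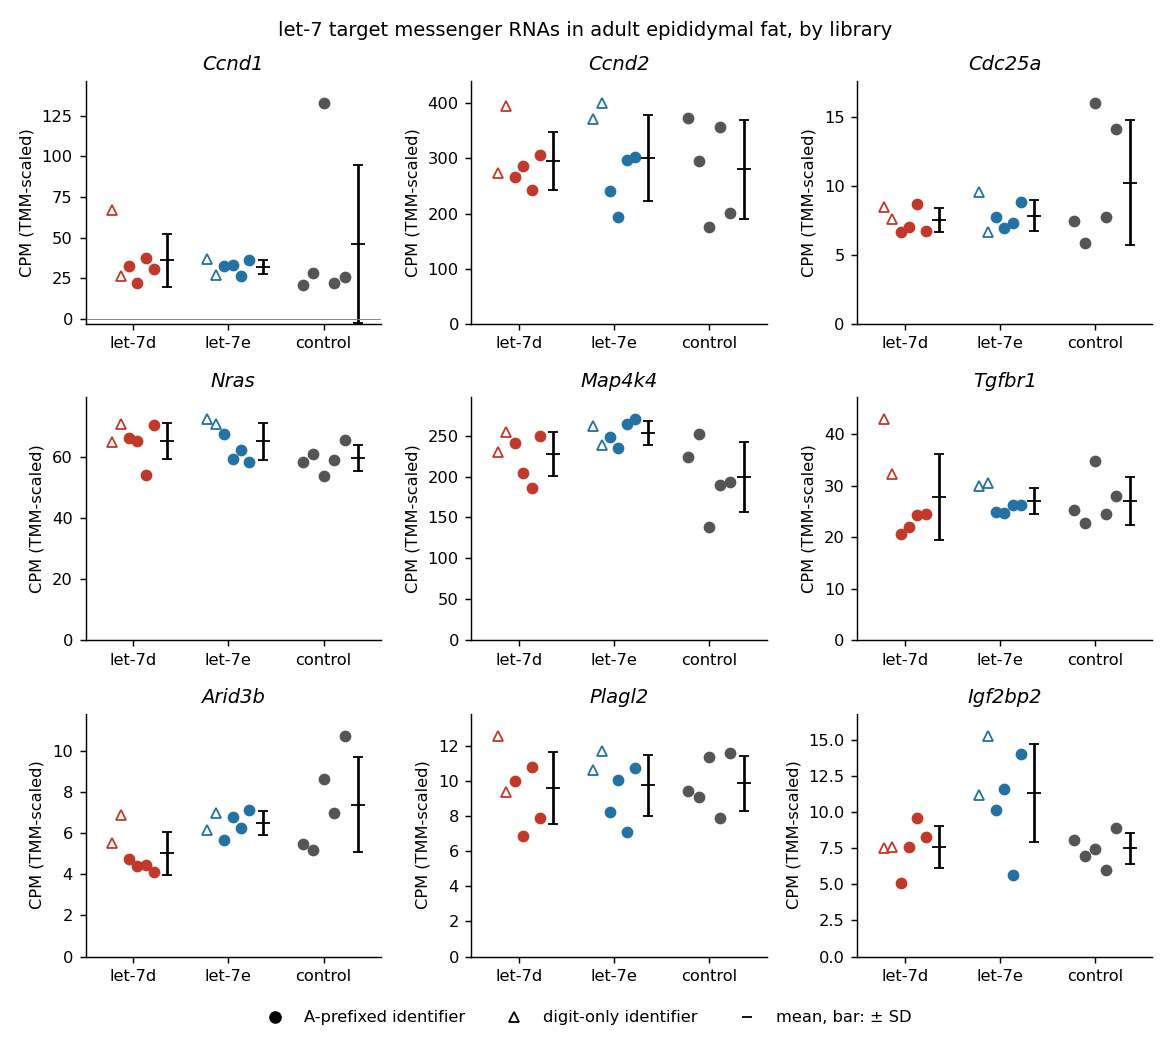
Level of each messenger RNA in CPM (linear axes), 1 point a library; triangles are libraries with digit-only identifiers, circles those with A-prefixed ones, and the bar beside each group is the mean ± SD (n = 6, 6 and 5). The groups overlap in every panel; Ccnd1 in control 3, at 133 CPM, stands far above the other controls, so that its SD bar reaches below 0, and 5 of 6 let-7e libraries lie above every control for Igf2bp2.

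None of the 9 messenger RNAs passed the test in any comparison. Let-7d against control asks whether targets differ in the fat of mice from let-7d zygotes. With edgeR's quasi-likelihood test and an adjusted p under 0.05, 0 of 9 were called, as were 0% of all genes. At an unadjusted p under 0.05 the count was 1 of 9 (Arid3b, lower), against 10.2% of all genes (3.11% higher and 7.08% lower). For 0 of 9 did the let-7d and control libraries not overlap, against 0.517% of all genes. The fitted change was below 0 for 7 of 9, against 57.5% of all genes, and its median was -0.15 against -0.04 on the log2 scale. DESeq2 called 0 of 9 and 10 of 16452 genes, and limma-voom 0 of 9 and 0 genes. Each had 1 of 9 at an unadjusted p under 0.05, beside 1569 genes with DESeq2 and 1217 with limma-voom. DESeq2 gave no p for Ccnd1.

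The comparison of let-7e with control asks this of let-7e. EdgeR called 0 of 9 (0% of all genes), and at an unadjusted p under 0.05 the count was 2 of 9 (Igf2bp2 and Map4k4, both higher in let-7e libraries), against 10.5% of all genes (2.52% higher and 7.99% lower). DESeq2 called 0 of 9 and 15 of 16452 genes, with 2 of 9 and 1493 genes at an unadjusted p under 0.05. Limma-voom called 0 of 9 and 0 genes, with 1 of 9 and 1042 genes. The groups were free of overlap for 0 of 9, against 0.632% of all genes. The change was below 0 for 6 of 9, against 58.1% of all genes, with a median of -0.13 against -0.04 on the log2 scale. Without the 4 libraries that stood apart, the change was below 0 for 1 of 9 in let-7e against control (Ccnd2), where 8782 of 16452 genes were above 0. It was below 0 for 6 of 9 in let-7d against control, where 8477 of 16452 genes were above 0. At an unadjusted edgeR p under 0.05 there were then 3 of 9 with let-7e, beside 1128 of 16452 genes. Ccnd2, which was lower, and Igf2bp2, which was higher, were among them, and the remaining messenger RNA was higher. That fit held controls 1, 2 and 4, let-7d 2, 3, 4 and 6, and all 6 let-7e libraries. With let-7d there were 0 of 9, beside 1302 of 16452 genes. Of the 4 libraries, control 3 and control 6 are those set against let-7e, while let-7d 1 and let-7d 5 enter through the series term and the shared estimate of the spread.

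Let-7e against let-7d asks whether the microRNAs differ in what they leave. EdgeR called 0 of 9 (0% of all genes), and at an unadjusted p under 0.05 the count was 2 of 9 (Igf2bp2 and Arid3b, both higher in let-7e libraries), against 6.67% of all genes (3.35% higher and 3.32% lower). DESeq2 called 0 of 9 and 14 of 16452 genes, with 2 of 9 and 1240 genes at an unadjusted p under 0.05, and limma-voom 0 of 9 and 0 genes, with 1 of 9 and 804 genes. The groups were free of overlap for 0 of 9, against 0.237% of all genes. The change was below 0 for 3 of 9, against 53.1% of all genes, with medians of 0.02 and -0.01. The comparisons share libraries: both injected groups were set against the same controls, and each injected group enters the comparison with the other, so their values are not independent.

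**Figure D3:**
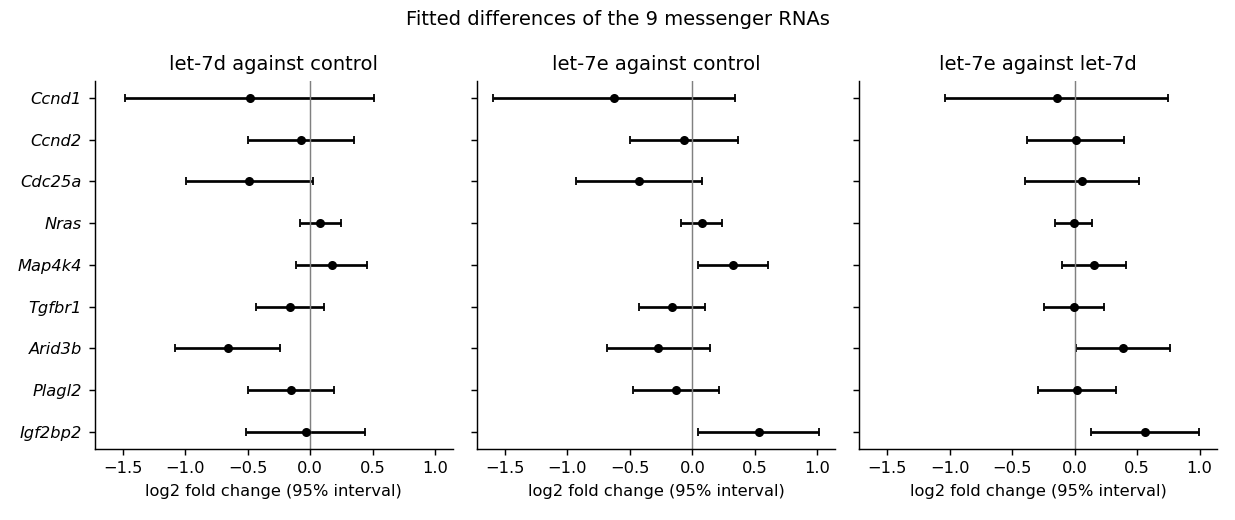
Fitted log2 fold change of each messenger RNA with its 95% interval (edgeR, group and identifier series as terms), in 1 panel for each of the 3 comparisons. Arid3b at -0.66 (let-7d against control), Igf2bp2 at 0.53 and Map4k4 at 0.33 (let-7e against control), and Igf2bp2 at 0.57 and Arid3b at 0.39 (let-7e against let-7d) have intervals that leave out 0, and none passes the adjustment over all genes.

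The cell cycle targets were described first. Ccnd1 and Ccnd2 are D-type cyclins, which with their kinases move cells towards DNA replication. Ccnd1 had 21.8, 31.6 and 66.9 CPM (lowest, median, highest) in let-7d libraries and 26.4, 32.9 and 36.7 CPM in let-7e libraries, against 20.6, 28.0, 133, 22.3 and 25.9 CPM in controls 1, 2, 3, 4 and 6. Control 3 stood alone at the top and let-7d 1 came second, while the medians of both injected groups were above the control median of 25.9 CPM. Means were 35.9 ± 16.1 CPM with let-7d, 32.0 ± 4.36 CPM with let-7e and 46.0 ± 48.8 CPM in the controls (SD, n = 6, 6 and 5). The log2 fold change was -0.48 (95% interval -1.48 to 0.51, edgeR adjusted p 0.730) with let-7d and -0.63 (-1.59 to 0.34, adjusted p 0.644) with let-7e. Control 3 decided both signs: without it they were 0.47 with let-7d (adjusted p 0.579) and 0.32 with let-7e (adjusted p 0.866). Both libraries at the top, control 3 and let-7d 1, have high sums of epithelium markers, at 289 and 538 CPM. Let-7d 5, at 238 CPM of those markers, had 37.7 CPM of Ccnd1. The 2 top libraries did not share all of these markers. Epcam, Krt8 and Cldn7 had 86.5, 126 and 62.7 CPM in control 3 and 97.6, 126 and 20.5 CPM in let-7d 1. Cdh16, Cldn2 and Foxj1 had 12.3, 1.00 and 0.433 CPM in control 3 and 96.1, 149 and 49.4 CPM in let-7d 1. The part of these transcripts in the Ccnd1 level was not tested.

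Ccnd2, the more abundant cyclin here, had 243, 279.8 and 395 CPM in let-7d libraries and 194, 300.4 and 400.4 CPM in let-7e libraries, against 374, 296, 176, 356 and 200.3 CPM in the controls. The 3 groups covered nearly the same range, and the lowest value was in control 3. The highest let-7d and let-7e values, in let-7d 2 and let-7e 2, both belong to the digit-only series. Group means were 295 ± 53.0 and 301 ± 77.5 CPM in let-7d and let-7e libraries and 280.3 ± 89.6 CPM in controls. The log2 fold changes were -0.07 (-0.50 to 0.35) with let-7d and -0.06 (-0.50 to 0.37) with let-7e, with edgeR adjusted p of 0.917 and 0.940. Leaving out the identifier series as a term turned both signs, to 0.07 and 0.10. With the 4 libraries left out they were -0.26 with let-7d (adjusted p 0.654) and -0.37 with let-7e (adjusted p 0.713). The latter was the smallest edgeR adjusted p of the 9 in let-7e against control in that fit.

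Cdc25a, a phosphatase that switches on cyclin-dependent kinases, had 6.66, 7.35 and 8.67 CPM in let-7d libraries and 6.70, 7.55 and 9.57 CPM in let-7e libraries, against 7.505, 5.87, 16.0, 7.76 and 14.2 CPM in the controls. Controls 3 and 6 stood above every other library, and the other 3 controls lay within or below the injected groups. The log2 fold changes were -0.49 (-0.99 to 0.02, edgeR adjusted p 0.510) with let-7d and -0.43 (-0.93 to 0.08, adjusted p 0.538) with let-7e. Once the 4 libraries were left out they were -0.02 with let-7d (adjusted p 0.983) and 0.14 with let-7e (adjusted p 0.862). The same controls hold the vas deferens and smooth muscle markers (control 3) and the spermatid markers (control 6), and the part of these in the Cdc25a level was not tested. The 6 markers of dividing cells summed to 19.4, 29.6 and 69.1 CPM (lowest, median, highest) in let-7d libraries and 15.6, 37.5 and 72.3 CPM in let-7e libraries, against 18.2, 19.3, 18.9, 25.02 and 36.9 CPM in the controls. Control 6 was thus the highest control for these markers and control 3 among the low ones, and their part in the Cdc25a level was not tested.

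**Figure D4:**
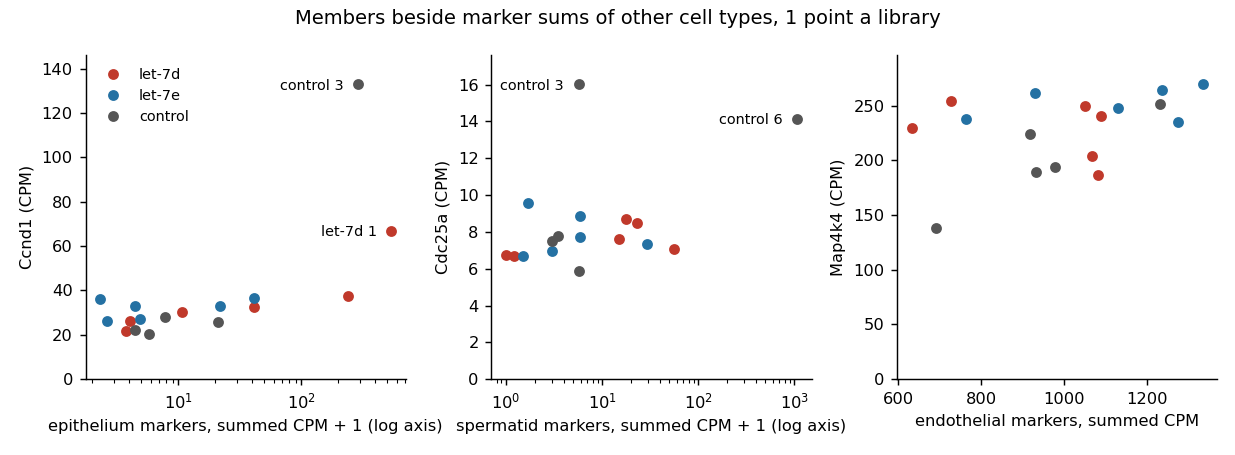
Ccnd1, Cdc25a and Map4k4 (CPM) in each of the 17 libraries against the summed level of epithelium, spermatid and endothelial markers (CPM; the first 2 axes are logarithmic after adding 1). Ccnd1 is highest in control 3 and let-7d 1, which have epithelium sums of 289 and 538 CPM, and Cdc25a is highest in control 3 and control 6, of which control 6 has a spermatid sum of 1066.1 CPM.

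The signalling targets come next. Nras, a small GTPase upstream of the MAP kinases, had 54.2, 65.8 and 70.7 CPM in let-7d libraries and 58.5, 64.9 and 72.3 CPM in let-7e libraries, against 58.4, 61.1, 53.8, 59.0 and 65.6 CPM in the controls. The groups overlapped, and the lowest let-7d library, let-7d 5, fell near control 3. Group means were 65.3 ± 6.00 and 65.1 ± 5.93 CPM in let-7d and let-7e libraries and 59.6 ± 4.30 CPM in controls. The log2 fold changes were 0.08 (-0.08 to 0.25) with let-7d and 0.08 (-0.09 to 0.24) with let-7e, with edgeR adjusted p of 0.718 and 0.765. These were the narrowest intervals of the 9. Their lower ends lay at 0.945-fold of control with let-7d and 0.940-fold with let-7e, in the main fit and for these libraries.

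Map4k4, a kinase of the Ste20 family that acts on stress kinase pathways, had 187, 235 and 255 CPM in let-7d libraries and 235, 255 and 269.8 CPM in let-7e libraries, against 224, 252, 139, 189 and 194 CPM in the controls. Each let-7e library was above the control mean of 199 ± 42.3 CPM (SD, n = 5), and 3 of 6 were above every control. The let-7e mean was 253 ± 14.5 CPM (SD, n = 6) and the let-7d mean 228 ± 26.9 CPM (SD, n = 6). The log2 fold change was 0.33 with let-7e (0.04 to 0.61, p 0.0264, edgeR adjusted p 0.417) and 0.17 with let-7d (-0.11 to 0.46, adjusted p 0.664). Without control 3, the lowest library, it was 0.24 with let-7e (p 0.0503, adjusted p 0.687) and 0.08 with let-7d (adjusted p 0.847). Without the 4 libraries it was 0.20 with let-7e (p 0.108, adjusted p 0.757). The 4 endothelial markers summed to 763, 1184 and 1336 CPM (lowest, median, highest) in let-7e libraries and 633, 1060 and 1091 CPM in let-7d libraries, against 918.4, 1231, 692, 933 and 979 CPM in the controls. Their part in the Map4k4 level was not tested. The fitted change of Map4k4 was positive in all 3 comparisons, which share libraries, and only the interval of let-7e against control left out 0. Map4k4 carries an 8mer, and the part of that match in its level was not tested.

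Tgfbr1, the type I receptor of transforming growth factor beta, carries an 8mer near its stop codon. It had 20.7, 24.5 and 42.9 CPM in let-7d libraries and 24.6, 26.3 and 30.6 CPM in let-7e libraries, against 25.3, 22.7, 34.8, 24.6 and 28.1 CPM in the controls. In both injected groups the libraries with digit-only identifiers were the highest: let-7d 1 and 2 had 42.9 and 32.3 CPM and let-7e 1 and 2 had 30.0 and 30.6 CPM. Means over the A-prefixed libraries alone were 22.9 ± 1.90 CPM (SD, n = 4) in let-7d and 25.5 ± 0.873 CPM (SD, n = 4) in let-7e, against 27.1 ± 4.71 CPM (SD, n = 5) in controls. The log2 fold changes were -0.16 (-0.43 to 0.11) with let-7d and -0.16 (-0.43 to 0.10) with let-7e, with edgeR adjusted p of 0.666 and 0.659. Without the identifier series term they were 0.04 and 0.00. They were -0.05 with let-7d and 0.06 with let-7e when the 4 libraries were left out.

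The DNA- and RNA-binding targets are Arid3b, Plagl2 and Igf2bp2. Arid3b, a DNA-binding protein with an AT-rich interaction domain, had 4.10, 4.58 and 6.86 CPM in let-7d libraries and 5.66, 6.49 and 7.12 CPM in let-7e libraries, against 5.44, 5.15, 8.60, 6.96 and 10.7 CPM in the controls. Of the 6 let-7d libraries 4 were below every control, and those with the highest values, let-7d 1 and 2 at 5.51 and 6.86 CPM, are of the digit-only series. Means were 5.005 ± 1.03 CPM with let-7d, 6.48 ± 0.566 CPM with let-7e and 7.37 ± 2.32 CPM in the controls (SD, n = 6, 6 and 5). The log2 fold change with let-7d was -0.66 (-1.08 to -0.24), a fold of 0.633, with p 0.00451 and an edgeR adjusted p of 0.456. Within the A-prefixed libraries it was -0.73 (p 0.00525, adjusted p 0.594), with a let-7d mean of 4.42 ± 0.260 CPM (SD, n = 4).

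The highest Arid3b values were in control 6 and control 3, the libraries with spermatid and vas deferens markers, whose part in them was not tested. Without control 6 the change with let-7d was -0.48 (p 0.0171, adjusted p 0.535), and without the 4 libraries it was -0.28 (p 0.163, adjusted p 0.696). With let-7e the change was -0.27 (-0.68 to 0.14, adjusted p 0.640), and without the 4 libraries it was 0.09 (adjusted p 0.923). Set against let-7d, Arid3b was higher in let-7e libraries, by 0.39 (0.01 to 0.77, p 0.0450, adjusted p 0.741), and each of the 6 let-7e libraries was above the let-7d mean. That difference was 0.36 without the 4 libraries (p 0.0340, adjusted p 0.527).

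Plagl2, a zinc finger transcription factor, had 6.85, 9.68 and 12.6 CPM in let-7d libraries and 7.11, 10.3 and 11.7 CPM in let-7e libraries, against 9.40, 9.10, 11.3, 7.91 and 11.6 CPM in the controls. The groups covered the same range, and their means were 9.58 ± 2.05 and 9.74 ± 1.73 CPM in let-7d and let-7e libraries and 9.86 ± 1.56 CPM in controls. The log2 fold changes were -0.15 (-0.50 to 0.19) with let-7d and -0.13 (-0.48 to 0.22) with let-7e, with edgeR adjusted p of 0.759 and 0.818. Without the 4 libraries they were -0.10 and 0.07.

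Igf2bp2, an RNA-binding protein that in mice acts on the translation of messenger RNAs of energy metabolism, had 5.11, 7.57 and 9.61 CPM in let-7d libraries and 5.63, 11.4 and 15.3 CPM in let-7e libraries, against 8.08, 6.98, 7.43, 6.02 and 8.92 CPM in the controls. Of the 6 let-7e libraries, 5 were above every control and above every let-7d library. The other, let-7e 5, was below every control. Means were 11.3 ± 3.38 CPM with let-7e, 7.61 ± 1.46 CPM with let-7d and 7.49 ± 1.096 CPM in the controls (SD, n = 6, 6 and 5). The log2 fold change with let-7e was 0.53 (0.05 to 1.01), a fold of 1.44, with p 0.0336 and an edgeR adjusted p of 0.443. Against let-7d it was 0.57 (0.13 to 1.00, p 0.0139, adjusted p 0.700). With let-7d against control it was -0.04 (-0.51 to 0.44, adjusted p 0.965). The let-7e values were close without the 4 libraries, at 0.60 against control (p 0.0409, adjusted p 0.723) and 0.65 against let-7d (p 0.0143, adjusted p 0.488). Within the A-prefixed libraries they were 0.48 (p 0.0745, adjusted p 0.681) and 0.45 (p 0.115, adjusted p 0.925). Igf2bp2 carries an 8mer and a 7mer-A1 a short distance apart.

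In let-7e against let-7d the other 7 messenger RNAs lay between -0.14 (Ccnd1, -1.04 to 0.75) and 0.15 (Map4k4, -0.10 to 0.41) on the log2 scale. Nras, at -0.01 (-0.15 to 0.14), and Tgfbr1, at -0.00 (-0.24 to 0.24), had the narrowest intervals. Ccnd2 was at 0.01 (-0.38 to 0.40), Plagl2 at 0.02 (-0.29 to 0.33) and Cdc25a at 0.06 (-0.40 to 0.52). Their edgeR adjusted p ran from 0.876 to 0.998.

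Over the 36 pairs, Pearson's r of log2 CPM across the 17 libraries had a median of 0.11, with 22 pairs above 0, and these points share their libraries and group structure. The highest pair was Arid3b with Cdc25a (0.68), both high in controls 3 and 6. The lowest was Cdc25a with Map4k4 (-0.66), and control 3 held the highest Cdc25a and the lowest Map4k4 value of all libraries. Among Tgfbr1, Ccnd1, Cdc25a and Plagl2 the pairs lay between 0.48 and 0.61, and among Nras, Map4k4 and Ccnd2 between 0.47 and 0.59, groupings picked after the values were seen. By the same measure over 17 libraries, the gene most like Ccnd1 was Arhgef5 (0.98), that most like Map4k4 was Jcad (0.94) and that most like Ccnd2 was Ppip5k1 (0.94). Tgfbr1 was nearest to Pik3c2a (0.92), Cdc25a to Tesk2 (0.91), Nras to Fam126a (0.90) and Arid3b to Usp47 (0.90). Plagl2 and Igf2bp2 had weaker neighbours, Mbtd1 (0.85) and Car1 (0.83). Each neighbour was picked as the highest r over many genes, and the size of these r was not set against a background.

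A wider list of 46 let-7 targets from textbook knowledge, of which 40 were measured, was examined in the same fits. Hmga2, Lin28a, Lin28b, Trim71, Igf2bp1 and Il6 were not analysed here. With let-7d, 17 were higher and 23 lower, with a median log2 fold change of -0.06 against -0.04 over all genes. With let-7e, 21 were higher and 19 lower, with a median of 0.01 against -0.04 over all genes. In let-7e against let-7d, 24 were higher and 16 lower, with a median of 0.09 against -0.01 over all genes. The share that was lower was thus 57.5%, 47.5% and 40% of the list in the order given, beside 57.5%, 58.1% and 53.1% of all genes. EdgeR called 0 of 40 in each comparison. At an unadjusted p under 0.05 there were 5 of 40 with let-7d (10.2% of all genes), 5 of 40 with let-7e (10.5%) and 6 of 40 in let-7e against let-7d (6.67%). The smallest p with let-7d was that of Mycn, a growth-promoting transcription factor, at 1.11 (SE 0.357, adjusted p 0.456), with 1.496 ± 0.646 CPM in let-7d libraries and 0.683 ± 0.199 CPM in controls. Its lowest let-7d library, at 0.857 CPM, was just above the highest control, at 0.833 CPM, a separation that 0.517% of all genes showed. Both values are low, and Mycn was picked for its small p in the same values, so the separation adds no support. Nr6a1, a nuclear receptor of germ cells and embryos, was at -1.50 (SE 0.523, adjusted p 0.456), with 2.79 ± 0.832 CPM in let-7d libraries and 7.004 ± 8.59 CPM in controls. Control 6, the library with spermatid markers, had 22.3 CPM and the other controls 2.36 to 3.87 CPM. The part of spermatid transcripts in the Nr6a1 level was not tested. Hic2, a transcriptional repressor, was at -0.48 (SE 0.179, adjusted p 0.461), and control 3 was its highest library.

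With let-7e the smallest p of that list belonged to Col3a1, a fibrillar collagen, at 0.59 (SE 0.189, adjusted p 0.356), with 1443 ± 278 CPM in let-7e libraries and 1028 ± 161 CPM in controls. E2f5, a repressive E2F factor, was at -0.50 (SE 0.182, adjusted p 0.378), with 13.6 CPM in control 3 and 7.45 to 9.53 CPM in the other controls. Nr6a1 was at -1.38 (SE 0.506, adjusted p 0.382). In let-7e against let-7d, Irs2, which relays the insulin receptor signal, was at 0.67 (SE 0.190, adjusted p 0.700), with 122 ± 34.3 CPM in let-7e libraries and 74.997 ± 21.5 CPM in let-7d libraries. Cdk6, a partner of the D-type cyclins, was at -0.79 (SE 0.295) and Bach1, a repressor of oxidative stress genes, at 0.48 (SE 0.186), both with an adjusted p of 0.700. Cdk6 was highest in let-7d 1, the library with the most epithelium markers, at 45.6 CPM, and at most 16.0 CPM in the other let-7d libraries. The part of epithelium transcripts in the Cdk6 level was not tested. Bach1 had 59.0 CPM in let-7e 2 and 24.8 to 35.9 CPM in the other let-7e libraries. A list of 15 genes that make, load, block or degrade let-7 or its precursors was also examined. Some of them favour let-7 and others limit it, so the counts by direction mix both. Dicer1 is in the list of targets too. Of the 15, 13 were measured. Of these, 4 were higher and 9 lower with let-7d, 6 higher and 7 lower with let-7e, and 7 higher and 6 lower in let-7e against let-7d, where 57.5%, 58.1% and 53.1% of all genes were lower. EdgeR called 0 of the 13 in each, with 1, 1 and 0 at an unadjusted p under 0.05, against 10.2%, 10.5% and 6.67% of all genes. Ago2, the slicing Argonaute, stood at 61.9 ± 11.3 CPM in let-7d libraries and 48.9 ± 3.66 CPM in controls, and its log2 fold change was 0.26 (SE 0.118, edgeR adjusted p 0.479). Tarbp2, a partner of Dicer, stood at 19.9 ± 0.706 CPM in let-7e libraries and 25.02 ± 3.27 CPM in controls, and its log2 fold change was -0.26 (SE 0.102, edgeR adjusted p 0.406). Next in order of p were Tarbp2 (-0.15) and Dicer1 (-0.13), the enzyme that cuts precursors, with let-7d, and Ago2 (0.22) and Tut7 (0.11), which adds uridines to let-7 precursors, with let-7e. In let-7e against let-7d, Tut7 was at 0.12, Dicer1 at 0.13 and Tarbp2 at -0.10.

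All measured genes were then grouped by their best seed match, as a description across genes, which are not independent replicates. In let-7d against control the median log2 fold change was -0.03 for 506 genes with an 8mer, -0.05 for 950 with a 7mer-m8, -0.05 for 890 with a 7mer-A1 and -0.04 for 11804 with none. In let-7e against control the medians were -0.02, -0.04, -0.03 and -0.04 in the same order. In let-7e against let-7d they were 0.00, -0.00, 0.01 and -0.02. The classes differ in 3' UTR length, with a median of 2356.5 bases for genes with any match and 963 bases for those with none. The share of genes with a fitted change below 0 in let-7d against control was 57.3% with an 8mer, 60.6% with a 7mer-m8 and 60.1% with a 7mer-A1, against 57.3% with no match. In let-7e against control it was 55.1%, 58.6% and 57.0% in that order, against 58.6% with no match. In let-7e against let-7d it was 49.8%, 50.9% and 44.8%, against 54.1% with no match. These shares were not tested against each other.

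**Figure D5:**
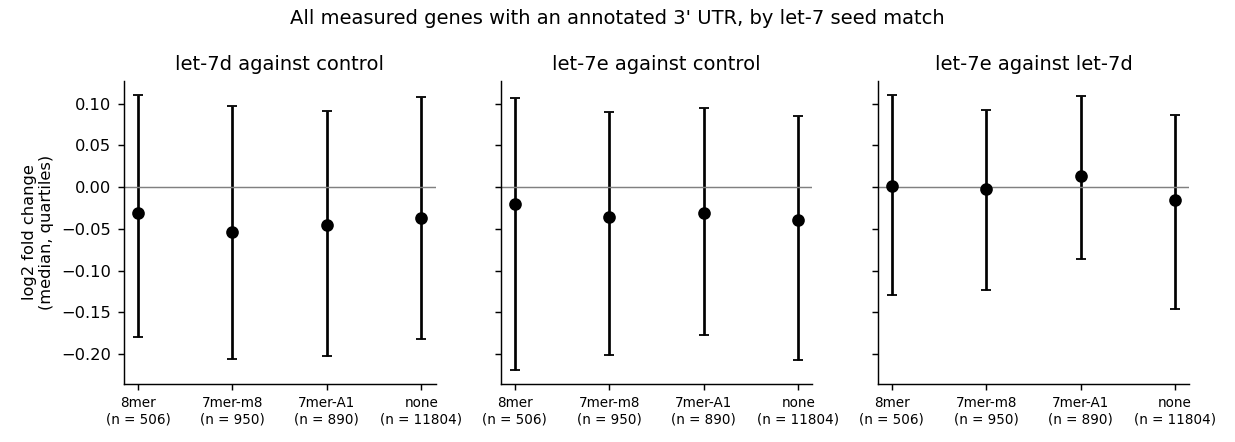
Median log2 fold change (points) with the lower and upper quartile (bars) of all measured genes with an annotated 3' UTR, by their best let-7 seed match, in the 3 comparisons. With let-7d against control the medians are -0.03 (8mer), -0.05 (7mer-m8) and -0.05 (7mer-A1), beside -0.04 with no match, and with let-7e against control -0.02, -0.04 and -0.03, beside -0.04.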

How the data were processed

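RNA from whole eWAT (1 ug a library, per the labels) was sequenced on an Illumina NovaSeq. Per the submitters' processing notes reads were aligned with STAR to GRCm38.p6, and the counting tool is not given in the sources used here. The deposited table holds whole read counts for each Ensembl gene, which the authors had filtered by CPM. A second deposited table, named RPKM, was not used, because the gene length it implies differed between libraries by a median ratio of 93.3 over 10827 genes. Of 16452 identifiers, 16432 had a symbol in GENCODE M21.

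Counts were scaled by TMM and tested with edgeR 4.0.16 in R 4.3.3 (quasi-likelihood, group and identifier series as terms, all 17 libraries in 1 fit, two-sided, Benjamini-Hochberg over 16452 genes, threshold 0.05). FilterByExpr removed 0 genes, and edgeR's common coefficient of variation came to 0.36. The 95% intervals come from the same fit. Log2 CPM has a prior count of 2. Total counts limit the precision to that of 53 reads for the lowest value. Alternatives were DESeq2 1.42.0, its size factors, limma 3.58.1 (voom), a filter at 5 CPM, other terms and left-out libraries. Libraries were compared in pairs for duplicates, and in the closest pair chi-square was 14.65 per degree of freedom. The procedure was run on simulated data without a series effect. The planted changes were larger than those fitted for these messenger RNAs, so the recovery of changes of their size was not examined.

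The 3' UTR is the longest among complete protein-coding transcripts of a gene. Sequences came from RefSeq (microRNAs) and from GENCODE M21 transcripts. The named genes were the 9 members, the nearest gene to each by correlation, and the 3 smallest p of each list per comparison. Members, lists and markers were chosen with earlier results of these data known.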

Additional observations from a re-analysis of the deposited data

Results flagged for a closer look

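Of 27 sets of values (9 messenger RNAs in 3 groups), 3 held a library that lay far from the rest of its group by Dixon's ratio, where chance alone flags about 5% of sets. Ccnd1 stood at 133 CPM in control 3, while the next control was at 28.0 CPM. Ccnd1 stood at 66.9 CPM in let-7d 1, while the next let-7d library was at 37.7 CPM. Nras stood at 54.2 CPM in let-7d 5, below the next let-7d library at 64.9 CPM. All 3 libraries are among the 4 that are high in markers of neighbouring organs or epithelium, and the part of those transcripts in these values was not tested.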

How the results depend on the processing

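The count of called messenger RNAs was 0 of 9 in each comparison under every setting run. Counts of all called genes changed with DESeq2, to 10 with let-7d, 15 with let-7e and 14 in let-7e against let-7d, where edgeR called 0. The cause was not tested.

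Whether the replicate numbers pair the libraries is not settled by these values. Same-numbered libraries had deviations from their group means correlated above 0.1 in 1 of 5 pairs of let-7d and control and 1 of 5 of let-7e and control. For let-7e and let-7d it was 4 of 6. There replicates 1 and 2, at 0.496 and 0.171, are of the digit-only series in both groups, so series and pairing cannot be told apart. With the replicate number as a block in place of the identifier series, 1 gene was called with let-7d, and signs turned for Igf2bp2 (0.0628), Tgfbr1 (0.0212) and Ccnd2 (0.126) with let-7d, and for Tgfbr1 (0.0069), Ccnd2 (0.139) and Plagl2 (0.0029) with let-7e. With the block and the series, they turned for Igf2bp2 (0.0138) and Ccnd2 (0.151) with let-7d, Ccnd2 (0.166) with let-7e and Tgfbr1 (0.0017) in let-7e against let-7d.

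Without the series term, Igf2bp2 (0.0209), Tgfbr1 (0.0399) and Ccnd2 (0.0738) turned with let-7d, and Tgfbr1 (2e-04) and Ccnd2 (0.103) with let-7e. The change was then below 0 for 4 of 9 with let-7d, where 7409 of 16452 genes were above 0. With let-7e it was below 0 for 4 of 9, where 7030 genes were above 0. In the A-prefixed libraries, Igf2bp2 (0.0362) turned with let-7d, and Tgfbr1 (0.162), Ccnd1 (0.0674) and Ccnd2 (-0.0823) in let-7e against let-7d. With only the groups compared, Igf2bp2 was 0.0387 with let-7d. At 5 CPM and with limma-voom, Ccnd2 was -3e-04 and -0.0216 in let-7e against let-7d, and Plagl2 -0.0132 with limma-voom.

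Without the 4 libraries, Ccnd1 (0.257) turned with let-7d. With let-7e, Tgfbr1 (0.0619), Arid3b (0.0856), Ccnd1 (0.468), Cdc25a (0.142) and Plagl2 (0.0655) turned, and in let-7e against let-7d Tgfbr1 (0.111), Ccnd1 (0.211) and Ccnd2 (-0.107).

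Leaving out each library in turn gave ranges that crossed 0 for Ccnd1 (-0.667 to 0.469 with let-7d, -0.815 to 0.321 with let-7e, -0.262 to 0.121 in let-7e against let-7d), Ccnd2 (-0.187 to 0.0588, -0.178 to 0.0689 and -0.0713 to 0.0931), Igf2bp2 with let-7d (-0.156 to 0.071), and, in let-7e against let-7d, Cdc25a (-0.0031 to 0.125), Nras (-0.0476 to 0.0282), Plagl2 (-0.0548 to 0.0891) and Tgfbr1 (-0.0506 to 0.0955). Arid3b with let-7d stayed between -0.76 and -0.48 and Igf2bp2 with let-7e between 0.41 and 0.71.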

Other observations

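Transcripts that contain let-7 precursors were looked up after the values of the targets had been seen. The long noncoding RNA 6720427I07Rik, at chr13:48532905-48546500 (minus strand, GRCm38), spans let-7a, let-7d and let-7f. Its mean was 5.85 ± 0.938 CPM with let-7d, 6.32 ± 1.15 CPM with let-7e and 6.18 ± 1.25 CPM in controls (SD, n = 6, 6 and 5). Spaca6, at chr17:17827158-17843009 (plus strand), overlaps let-7e and stood at 33.3 ± 4.91 CPM in let-7e libraries, 31.8 ± 10.4 CPM in let-7d libraries and 27.0 ± 3.62 CPM in controls. The log2 fold changes were -0.16 (SE 0.178) for 6720427I07Rik with let-7d and 0.12 (SE 0.130) for Spaca6 with let-7e, with edgeR adjusted p of 0.769 and 0.791. Neither passed the test, and a host transcript does not measure the mature microRNA.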
